A study of Homo sapiens with 4 samples.

Results

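Tubulin messages were followed through 10 genes, 4 that encode alpha tubulin (TUBA1A, TUBA1B, TUBA1C and TUBA4A) and 6 that encode beta tubulin (TUBB, TUBB2A, TUBB2B, TUBB3, TUBB4B and TUBB6), out of 61543 genes in the count table. They were chosen by gene symbol, and each had counts in every library and entered the test. RNA was sequenced in 4 libraries from medium conditioned by HEK293T cells, an established line from human embryonic kidney. In 2 libraries the cells released EPN24-Cas13d, a fusion of the secreted protein nanocage EPN24 with the RNA-binding CRISPR effector Cas13d, and in the other 2 they released EPN24 without Cas13d. The design asks which RNAs Cas13d binds in cells, read from what the cages carry out (POND-seq). HEK293T cells and the EPN24 cage were shared by both groups, and the labels name no guide RNA and no promoter driving the cage.

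Alpha and beta tubulin form the heterodimer from which microtubules are built, and a vertebrate cell makes each from several genes, the isotypes. The isotypes differ most at the acidic carboxy-terminal tail, where tubulin is glutamylated and detyrosinated. Cells also hold their tubulin messages in check by autoregulation, in which the factor TTC5 recognises the first residues of nascent tubulin on the ribosome and SCAPER and the CCR4-NOT complex bring about decay of that messenger RNA.

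The first 30 coding bases of each member are shown because their first 4 codons, in capitals, encode the nascent peptide that autoregulation reads and separate the alpha from the beta messages. They were read from GENCODE release 29 transcripts (GRCh38), 5′ to 3′ on the messenger strand.
TUBA1A, TUBA1B and TUBA1C: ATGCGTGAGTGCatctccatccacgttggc
TUBA4A: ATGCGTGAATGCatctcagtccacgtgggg
TUBB: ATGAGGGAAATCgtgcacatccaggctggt
TUBB4B: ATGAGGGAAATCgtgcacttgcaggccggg
TUBB3: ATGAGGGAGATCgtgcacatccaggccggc
TUBB6: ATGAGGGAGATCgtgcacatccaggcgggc
TUBB2A: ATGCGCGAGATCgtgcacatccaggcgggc
TUBB2B: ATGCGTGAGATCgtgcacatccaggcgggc
The 10 messages held 6 forms of these 12 bases. TUBA1A, TUBA1B and TUBA1C shared the same form, TUBB shared its form with TUBB4B, and TUBB3 shared its form with TUBB6. TUBA4A, TUBB2A and TUBB2B each had a form of their own.

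The last 60 coding bases of TUBA4A and the 6 beta messages, with the stop codon in capitals, are shown because they encode the tail that distinguishes the isotypes, and because they show which messages are hard to tell apart by short reads. They come from the same GENCODE transcripts.
TUBA4A: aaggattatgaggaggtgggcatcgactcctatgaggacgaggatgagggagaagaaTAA
TUBB: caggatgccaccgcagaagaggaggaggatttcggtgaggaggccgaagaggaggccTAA
TUBB4B: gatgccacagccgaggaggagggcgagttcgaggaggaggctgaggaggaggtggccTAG
TUBB2A: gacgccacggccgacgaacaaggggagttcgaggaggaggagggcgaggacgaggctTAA
TUBB2B: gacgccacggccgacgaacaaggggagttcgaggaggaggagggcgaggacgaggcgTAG
TUBB3: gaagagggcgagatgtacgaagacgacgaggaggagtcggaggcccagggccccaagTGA
TUBB6: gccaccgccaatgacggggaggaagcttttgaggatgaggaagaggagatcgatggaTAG
TUBB2A and TUBB2B had 2 differing bases in this stretch. In TUBA4A the last codon before the stop was gaa, a glutamate codon, so its message does not encode a terminal tyrosine.

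Over the whole coding sequence, which ran from 444 codons in TUBB to 451 in TUBA1A and TUBA1B, identity was 85.0% to 97.3% within the 6 alpha pairs (median 91.3%) and 81.3% to 98.1% within the 15 beta pairs (median 86.2%). Between alpha and beta it was 54.7% to 56.8% over 24 pairs. The closest pairs were TUBB2A with TUBB2B (98.1%), TUBA1B with TUBA1C (97.3%) and TUBA1A with TUBA1B (97.2%). Of all 150-base stretches of the principal transcript, 49.4% in TUBB2A, 38.2% in TUBB2B, 19.1% in TUBA1B, 6.91% in TUBA1A and 6.77% in TUBA1C also occurred in another member. The share was 2.22% in TUBB3 and 0 in the other members. For 50-base stretches it was 60.3% in TUBB2A, 56.6% in TUBA1B, 47.3% in TUBB2B, 40.9% in TUBA1A and 25.1% in TUBA1C. At that length TUBB3 had 8.66%, TUBB4B 5.92%, TUBB6 0.99%, and TUBA4A and TUBB 0. The division of reads between TUBB2A and TUBB2B, and among TUBA1A, TUBA1B and TUBA1C, is therefore uncertain. How reads that map to several genes were handled is not given in the sources used here.

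Libraries differed widely in depth and content. EPN24-Cas13d held 5097332 and 4863449 gene counts and EPN24 held 1830860 and 1903492. Gene counts per ERCC spike-in count were 56.9 and 59.3 with Cas13d and 4.11 and 3.79 without it. Over the 361 olfactory receptor genes, which a kidney line is not known to use, the density was 0.179 and 0.141 counts per kb with Cas13d and 1.85 and 1.44 without. The marker calls that follow stand beside 32.6% higher and 48.2% lower over all tested genes. Of 11 HEK293-associated markers, 4 were higher and 3 lower with Cas13d, and their summed CPM was 2073 to 2088 against 388 to 406. VIM alone gave 1804 and 1820 CPM of that sum with Cas13d and 125 and 157 without, so the gap in the sum rests mainly on this gene. Of 10 neuronal markers 9 were tested, with 1 higher (INA, 2.24 on the log2 scale) and 7 lower (DCX, fell by 4.29), and a summed CPM of 88.8 to 91.8 against 111 in both EPN24 libraries. With ERCC spike-in scaling DCX was at -0.96 and not called, and INA was at 5.60 and called higher. Of 10 blood and liver markers 5 were tested, with 4 lower, and they summed to 7.05 to 9.37 against 47.8 to 53.1 CPM. Of those 10, 3 had no count in either Cas13d library and 1 had none in any library. What these differences contributed to the tubulin values was not tested. Supernatant RNA is a mixture, so more RNA per cage, more cages and RNA outside cages cannot be told apart. The labels do not say whether the 2 replicates of a group were separate cultures, so p-values describe the spread between libraries, which may be technical.

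Levels below are in CPM, the counts of a gene scaled to a common library size with TMM factors, with Cas13d replicates 1 and 2 first and EPN24 replicates 1 and 2 second. With this scaling, 7 of the 10 tubulin genes were higher in EPN24-Cas13d at an adjusted p under 0.05 and 0 were lower by edgeR's quasi-likelihood test. At an unadjusted p under 0.05 also 0 were lower, while limma-voom called TUBA4A lower. Among all 20476 tested genes 32.6% were higher and 48.2% were lower. The higher members were 3 of 4 alpha genes and 4 of 6 beta genes. The median log2 fold change was 2.18 over the alpha genes, 1.10 over the beta genes and 1.35 over all 10, against -0.96 over all tested genes. All 10 lay above that median, by 0.12 for TUBA4A up to 3.75 for TUBA1B. Other scalings left these margins nearly as they were (0.12 and 3.77 with ERCC scaling), while other settings moved them. With a stricter filter, which asks for 10 counts and 10 CPM in 2 libraries, the median of all tested genes was 0.015, and TUBA4A and TUBB3 lay below it. With the GC trend removed, TUBA4A, TUBB2A, TUBB3 and TUBB6 lay below the median. TUBA4A also lay below it with counts halved (-0.84 from the median), with background subtracted (-1.38), without EPN24 replicate 1 (-0.52) and without EPN24 replicate 2 (-0.45).

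**Figure D1:**
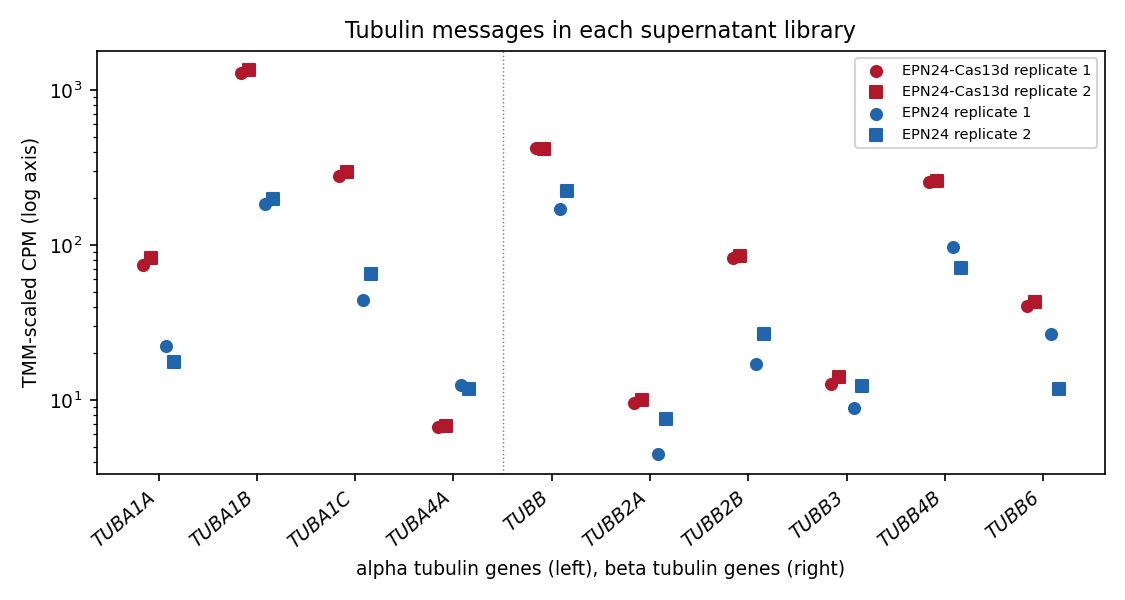
TMM-scaled CPM on a log axis for each of the 10 tubulin genes, with a point for each library (red EPN24-Cas13d, blue EPN24). TUBA4A is the member with the EPN24 libraries on top, at 12.5 and 11.8 against 6.73 and 6.80 (its order turns with ERCC scaling). For TUBB3 the nearest libraries of the 2 groups almost meet, at 12.7 with Cas13d and 12.3 without.

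TUBA1B, the broadly expressed alpha tubulin of dividing cells (ENSG00000123416.15, chromosome 12, 49127782 to 49131397 on the minus strand, GRCh38), had the highest level per kb of principal transcript in both groups. It measured 1278 and 1343 CPM with Cas13d and 183 and 196 without, from 5317.5 and 5337.33 counts against 410 and 415. Both Cas13d libraries lay far above both EPN24 libraries, and replicates differed little within each group. The mean was 1311 ± 45.9 against 190 ± 9.61 (SD, n = 2 in each group), and edgeR gave a log2 fold change of 2.79 (approximate SE 0.11, adjusted p = 1.25e-11). By CPM it ranked 56 among all tested genes with Cas13d and 137 without. Its exons share 1571 bases, 44.0% of their length, with ENSG00000258017, a long noncoding RNA gene on the opposite strand, which carried 3026.5 and 3115.33 counts with Cas13d and 241 and 248 without. Within the shared bases, reads of these 2 genes cannot be told apart, as the strand setting of the counting is not given in the sources used here. With the partner's counts added, the log2 fold change was 2.78.

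TUBA1C, an alpha isotype found in many tissues (ENSG00000167553.17, chromosome 12, 49188736 to 49274600 on the plus strand), measured 279 and 295 CPM with Cas13d and 44.2 and 65.3 without. The groups were well apart, with more spread in EPN24, where the counts were 99 and 138. Its log2 fold change was 2.39 (SE 0.16, adjusted p = 7.84e-09 in edgeR), or 2.47 with the counts of the overlapping noncoding gene ENSG00000258232 added. TUBA1A, the main alpha tubulin of developing neurons (ENSG00000167552.15, chromosome 12, 49184686 to 49189080 on the minus strand), measured 74.0 and 82.3 CPM with Cas13d and 22.3 and 17.5 without. Both Cas13d values stood above both EPN24 values, which rested on 50.5 and 37 counts. The log2 fold change was 1.97 (SE 0.22, adjusted p = 1.97e-06 in edgeR). The TUBA1A and TUBA1C exons share 345 bases on opposite strands. These 3 chromosome 12 neighbours all rose, with the largest fold change in TUBA1B and the smallest in TUBA1A.

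TUBA4A, the alpha isotype without an encoded terminal tyrosine (ENSG00000127824.15, chromosome 2, 219249710 to 219277902 on the minus strand), measured 6.73 and 6.80 CPM with Cas13d and 12.5 and 11.8 without. Its raw counts were nearly alike in the 4 libraries, 28.5, 27, 28.5 and 25. Both EPN24 values lay above both Cas13d values, while the mean CPM of each other member was higher with Cas13d. The log2 fold change of -0.84 (SE 0.42) had an adjusted p of 0.0766 in edgeR and did not pass the test. It passed as lower with 6 alternatives, where it lay between -0.85 (limma-voom) and -2.11 (GC trend removed). With ERCC spike-in scaling the sign turned, to 2.50 (adjusted p = 1.79e-04 in edgeR). TUBA4A shares 628 exon bases, 17.0% of its own, with STK16 on the opposite strand, a kinase gene with 515.5 and 525 counts with Cas13d and 48.5 and 25 without. The sums of the 2 genes were 544 and 552 against 77 and 50, and STK16 counts were not added in any alternative.

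TUBB, the class I beta tubulin of most dividing cells (ENSG00000196230.14, chromosome 6, 30717435 to 30725538 on the plus strand), measured 424 and 418 CPM with Cas13d and 171 and 222 without. Both Cas13d libraries were higher, by less than for the 3 called alpha genes. The mean was 421 ± 4.59 against 196 ± 35.6 (SD, n = 2 in each group), and the log2 fold change was 1.10 (SE 0.13, adjusted p = 3.03e-06 in edgeR). The call was lost both when background was subtracted at the olfactory receptor density (0.17) and under the stricter filter (0.24), and TUBB was 0.54 with total gene counts and 0.56 with the GC trend removed. By CPM it ranked 590 among all tested genes with Cas13d and 124 without, so its place was lower with Cas13d although its own CPM was higher. An overlapping noncoding gene on the opposite strand, ENSG00000272540, had 489 and 455 counts with Cas13d and 91.5 and 111.5 without, and with these added TUBB was 1.14.

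TUBB4B, the widely expressed class IVb beta tubulin that is also a building block of cilia (ENSG00000188229.6, chromosome 9, 137241287 to 137243707 on the plus strand), measured 253 and 257 CPM with Cas13d and 96.3 and 71.01 without. Both Cas13d values exceeded both EPN24 values, and the log2 fold change was 1.60 (SE 0.15, adjusted p = 2.63e-07 in edgeR). With the GC trend removed it was 0.062 and did not pass. TUBB2B, a class II beta tubulin best known from the brain (ENSG00000137285.11, chromosome 6, 3223324 to 3231730 on the minus strand), measured 82.2 and 84.3 CPM with Cas13d and 16.9 and 26.5 without. Its log2 fold change of 1.94 (SE 0.23, adjusted p = 3.27e-06 in edgeR) was the largest of the 6 beta genes, and the groups were far apart.

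TUBB2A, the near-identical class II copy next to it (ENSG00000137267.7, chromosome 6, 3153497 to 3157544 on the minus strand), measured 9.62 and 10.1 CPM with Cas13d and 4.46 and 7.57 without. With 10 and 16 counts in the EPN24 libraries, its log2 fold change of 0.71 (SE 0.47, adjusted p = 0.177 in edgeR) did not pass the test. It was 1.06 without EPN24 replicate 2 and 0.24 without EPN24 replicate 1. As reads of TUBB2A and TUBB2B are hard to separate, the difference between these 2 copies is uncertain. The ratio of TUBB2B to TUBB2A counts was 8.55 and 8.48 with Cas13d and 3.80 and 3.5 without.

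TUBB6, a class V beta tubulin made at low level in many cells (ENSG00000176014.13, chromosome 18, 12307669 to 12344320 on the plus strand), measured 40.6 and 42.8 CPM with Cas13d and 26.8 and 11.8 without. The EPN24 libraries differed by more than 2-fold, at 59.5 and 25 counts, yet both stayed under the Cas13d libraries. The log2 fold change was 1.10 (SE 0.31, adjusted p = 0.00462 in edgeR). It was 1.67 without EPN24 replicate 1 and 0.56 without EPN24 replicate 2, so its size rests on which EPN24 library is used. The call was lost with total gene counts (0.52), with the stricter filter (0.24), with background subtracted (0.38) and with the GC trend removed (-0.70). TUBB6 shares 837 exon bases, 21.2% of its own, with AFG3L2 on the opposite strand, which had 263 and 237.5 counts with Cas13d and 38.5 and 42 without. AFG3L2 counts were not added in any alternative.

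TUBB3, the class III beta tubulin used as a neuronal marker (ENSG00000258947.8, chromosome 16, 89921392 to 89938761 on the plus strand), measured 12.7 and 14.1 CPM with Cas13d and 8.92 and 12.3 without. The nearest Cas13d and EPN24 libraries almost met. The log2 fold change of 0.34 (SE 0.37, adjusted p = 0.408 in edgeR) did not pass, and its sign turned with total gene counts (-0.22), the stricter filter (-0.52), counts halved (-0.069), EPN24 replicate 1 left out (-0.016) and the GC trend removed (-1.46, where it passed as lower). A same-strand coding gene, ENSG00000198211, shares 1584 exon bases with TUBB3 and held 76.5 and 81 counts with Cas13d and 10.33 and 13.83 without. With those counts added, the sums were 129.5 and 137 against 30.33 and 39.33, and TUBB3 had a log2 fold change of 1.05 (adjusted p = 0.00344 in edgeR). Adding the counts of overlapping genes was chosen after seeing the data.

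**Figure D2:**
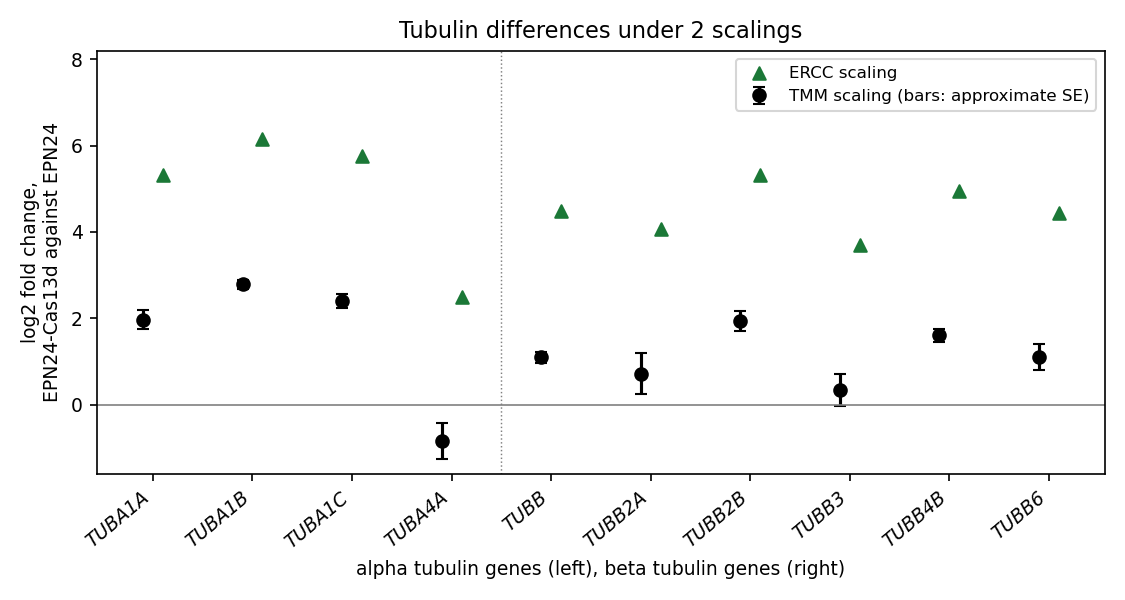
Log2 fold change of EPN24-Cas13d against EPN24 for the 10 tubulin genes, with TMM scaling (black, bars are the approximate SE) and with ERCC scaling (green triangles). With TMM the values run from -0.84 for TUBA4A to 2.79 for TUBA1B, and with ERCC scaling from 2.50 to 6.15 for the same genes.

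Per unit of spike-in, every tubulin message was more abundant with Cas13d. With ERCC totals as library sizes, all 10 members were higher by edgeR (largest adjusted p 1.79e-04), beside 58.4% of all tested genes higher, 2.33% lower and a median of 2.38 over all. The median was 5.55 over the alpha genes and 4.46 over the beta genes. TUBA1B counts per 10000 ERCC counts were 594 and 651 with Cas13d and 9.21 and 8.25 without, a ratio of means of 71.2. The ratio was 54.9 for TUBA1C, 40.2 for TUBB2B, 39.6 for TUBA1A, 30.8 for TUBB4B, 22.3 for TUBB, 21.6 for TUBB6, 17.1 for TUBB2A, 13.3 for TUBB3 and 5.69 for TUBA4A. In the authors' deposited table the log2 fold change was 6.12 for TUBA1B, 5.75 for TUBA1C, 5.30 for TUBB2B, 5.28 for TUBA1A, 4.90 for TUBB4B and 4.44 for TUBB. The authors' deposited table gave 4.38 for TUBB6, 4.07 for TUBB2A, 3.69 for TUBB3 and 2.47 for TUBA4A. Those values lay nearer to the ERCC-scaled than to the TMM-scaled ones. The change of scale moved the fitted values of all members by about the same amount. In ratios of means, close pairs changed places: TUBA1A stood at 3.93 and TUBB2B at 3.83 in CPM, and TUBB6 at 2.16 and TUBB at 2.14, in the opposite order to the ratios per ERCC count.

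The make-up of the tubulin pool shifted from beta to alpha. Alpha genes took 66.6% and 67.7% of the tubulin counts with Cas13d and 44.7% and 45.4% without, a difference of 22.1 percentage points between means of 67.1 ± 0.766 and 45.03 ± 0.476 (SD, n = 2 in each group). This share is taken within a library and does not depend on the scaling between libraries. The gap was far larger than the spread between replicates, with no test, since 2 against 2 libraries allow no exact permutation p under 0.33. In counts, the ratio of alpha to beta was 1.99 and 2.09 with Cas13d and 0.808 and 0.831 without. Per kb of principal transcript, the alpha share was 70.4% and 71.3% against 48.8% and 50.05%. With overlapping partner counts added it was 71.9% and 73.0% against 50.5% and 50.9%. TUBA1B carried much of the gap: without TUBA1B the difference in alpha share was 10.7 percentage points, and without TUBB it was 14.5.

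As a sum, alpha messages were 6.09-fold higher in CPM with Cas13d and beta messages 2.44-fold higher. Per ERCC count the ratios were 62.8 for alpha and 25.1 for beta. The 10 genes together took 0.201% and 0.209% of all gene counts with Cas13d and 0.0719% and 0.0712% without. The ratio of TUBA1B to TUBB counts, the gene with most counts in each class, was 3.01 and 3.22 with Cas13d and 1.07 and 0.888 without. In counts the pair thus stood near parity in EPN24, and TUBA1B led by 3-fold in EPN24-Cas13d.

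**Figure D3:**
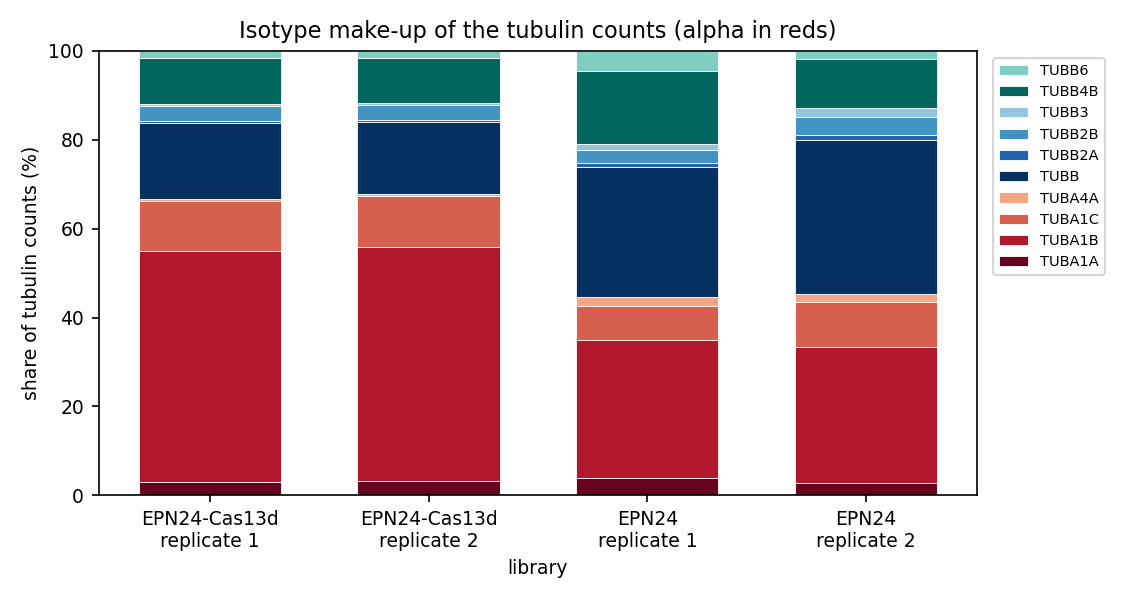
Share of the tubulin counts (%) taken by each of the 10 genes in each of the 4 libraries, stacked, with alpha genes in reds at the bottom. The alpha part reaches 66.6% and 67.7% with Cas13d and 44.7% and 45.4% without it.

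Within the alpha pool, TUBA1B took 78.0% and 77.8% of counts with Cas13d and 69.7% and 67.5% without. TUBA4A took 0.418% and 0.393% with Cas13d and 4.85% and 4.07% without, at nearly equal raw counts. TUBA1A took 4.51% and 4.76% against 8.59% and 6.02%. So the shares of TUBA4A and TUBA1A were lower with Cas13d in both libraries, while TUBA1C, at 17.0% and 17.1% against 16.8% and 22.4%, overlapped between the groups. Within the beta pool, TUBB2B took 10.0% and 10.2% with Cas13d and 5.22% and 7.56% without. TUBB3 took 1.55% and 1.71% against 2.75% and 3.44%. TUBB2B thus had the larger share and TUBB3 the smaller share with Cas13d. TUBB took 51.6% and 50.6% against 52.9% and 63.1%, and TUBB2A 1.17% and 1.20% against 1.37% and 2.16%, both lower with Cas13d by little more than the distance between EPN24 libraries or less. TUBB4B took 30.7% and 31.1% against 29.6% and 20.3%, and the shares of TUBB6 overlapped between the groups.

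The order of the messages by level, in CPM per kb of principal transcript, was led by TUBA1B in both groups. With Cas13d, TUBA1B stood at 806 ± 28.2 (SD, n = 2, here and below), followed by TUBB at 158 ± 1.72 and TUBB4B at 156 ± 1.76, which overlapped. TUBA1C followed at 95.7 ± 3.69, then TUBB2B at 41.2 ± 0.737 and TUBA1A at 40.8 ± 3.05, which overlapped too. TUBB6 (20.2 ± 0.741), TUBB3 (7.58 ± 0.541), TUBB2A (6.17 ± 0.2005) and TUBA4A (3.13 ± 0.0212) closed the order without overlap. Per kb of deposited exon length, TUBB4B at 125 ± 1.42 lay above TUBB at 103 ± 1.13, so that part of the order depends on the length used.

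Without Cas13d the levels were closer together. TUBA1B stood at 117 ± 5.91 CPM per kb of principal transcript, TUBB at 73.6 ± 13.3, TUBB4B at 51.1 ± 10.9 and TUBA1C at 18.2 ± 4.99. TUBB2B (10.8 ± 3.35), TUBA1A (10.4 ± 1.77), TUBB6 (9.35 ± 5.11), TUBB3 (6.00 ± 1.35) and TUBA4A (5.63 ± 0.214) followed, each overlapping with its neighbour in the order. TUBB2A was lowest at 3.77 ± 1.38. On this scale TUBA4A was thus lowest with Cas13d but not in EPN24. Per kb of deposited exon length, TUBA1B (53.1 ± 2.69), TUBB (48.2 ± 8.73) and TUBB4B (41.1 ± 8.79) overlapped with their neighbours in EPN24. On that exon length TUBB3 was lowest in both groups, at 1.81 ± 0.129 with Cas13d, where it overlapped TUBA4A at 1.83 ± 0.0124, and at 1.43 ± 0.323 without.

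Against the olfactory receptor density of the same EPN24 library, the counts per kb of exon were 62.2 to 80.7 times as high for TUBA1B, 51.2 to 79.8 for TUBB, 51.3 to 57.3 for TUBB4B and 12.05 to 21.5 for TUBA1C. They were 6.73 to 7.16 times as high for TUBA1A, 4.18 to 4.70 for TUBA4A, 1.86 to 3.82 for TUBB2A and 1.46 to 2.39 for TUBB3. TUBB3 and TUBB2A were thus the members nearest to that density in EPN24. With counts at that density subtracted, the log2 fold change was 0.49 for TUBB3 and 0.34 for TUBB2A, in place of 0.34 and 0.71. The median of all tested genes moved too, from -0.96 to -0.11. Measured from that median, TUBB3 lay at 0.60 in place of 1.30 and TUBB2A at 0.45 in place of 1.67.

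GC content moved with the difference over all genes, so it is given beside the members. Over all tested genes, the median log2 fold change was -3.05 where the longest transcript had under 40% GC, and it was 0.22 at 50% to 55%, 1.02 at 55% to 60% and 1.84 at 60% to 65%. TUBA1C (51.6% GC), TUBA1A (51.8%), TUBB (52.6%) and TUBA1B (54.7%) lay above the median of their GC range. TUBB2B (57.0%) and TUBB4B (59.5%) lay above the median of theirs. TUBA4A (57.8%), TUBB2A (59.3%), TUBB3 (61.2%) and TUBB6 (61.2%) lay below the median of theirs. With the GC trend removed, 5 members were higher (TUBA1A, TUBA1B, TUBA1C, TUBB and TUBB2B), beside 29.7% of all tested genes, and 2 were lower (TUBA4A and TUBB3), beside 39.9%. GC at the last codon position was 61.5% to 71.05% in the alpha genes and 69.4% to 91.1% in the beta genes. The part of GC content in the tubulin differences was not tested apart from this trend.

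**Figure D4:**
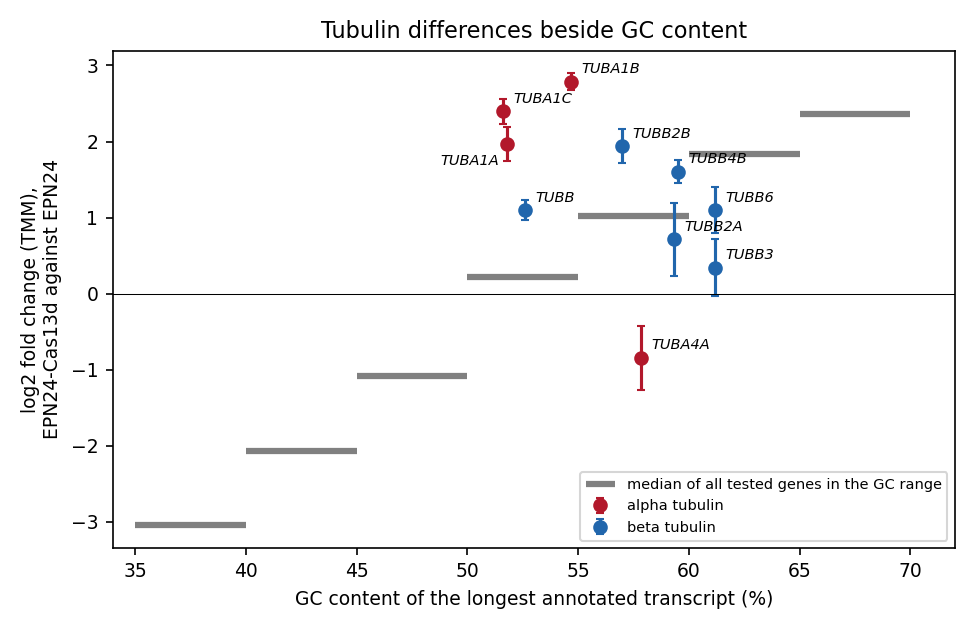
Log2 fold change (TMM) of the 10 tubulin genes against the GC content of the longest annotated transcript in percent, with bars for the approximate SE, and grey lines for the median of all tested genes in each GC range (the outermost ranges, under 40% and over 65%, are drawn shortened). TUBA1A, TUBA1B and TUBA1C lie above the grey line of 0.22 at 50% to 55% GC, and TUBA4A lies below the line of 1.02 at 55% to 60%.

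TUBA1A, TUBA1B, TUBA1C and TUBB2B were called higher with each of the 17 alternatives, and their lowest values were 1.11 and 1.85 for TUBA1A and TUBA1B, 1.53 for TUBA1C and 0.80 for TUBB2B. TUBB4B lost its call with the GC trend removed and kept it with the other 16. The number of members called higher was 6 with total gene counts, where 27.1% of all tested genes were higher and 54.5% lower. It was 5 with the stricter filter (40.7% higher and 41.7% lower over all), 5 with background subtracted (33.9% and 36.7%) and 7 with counts halved (38.3% and 45.6%). It was 8 with overlapping counts added (32.6% and 48.2%) and 7 with limma-voom (32.1% and 47.9%). In these alternatives TUBA4A was the single member called lower, except with overlapping counts added, where 0 were. Overlapping counts were added only where at least 30% of the other gene's exon bases were shared. TUBA4A and TUBB6 therefore had no counts added, and their overlaps were not tested.

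**Figure D5:**
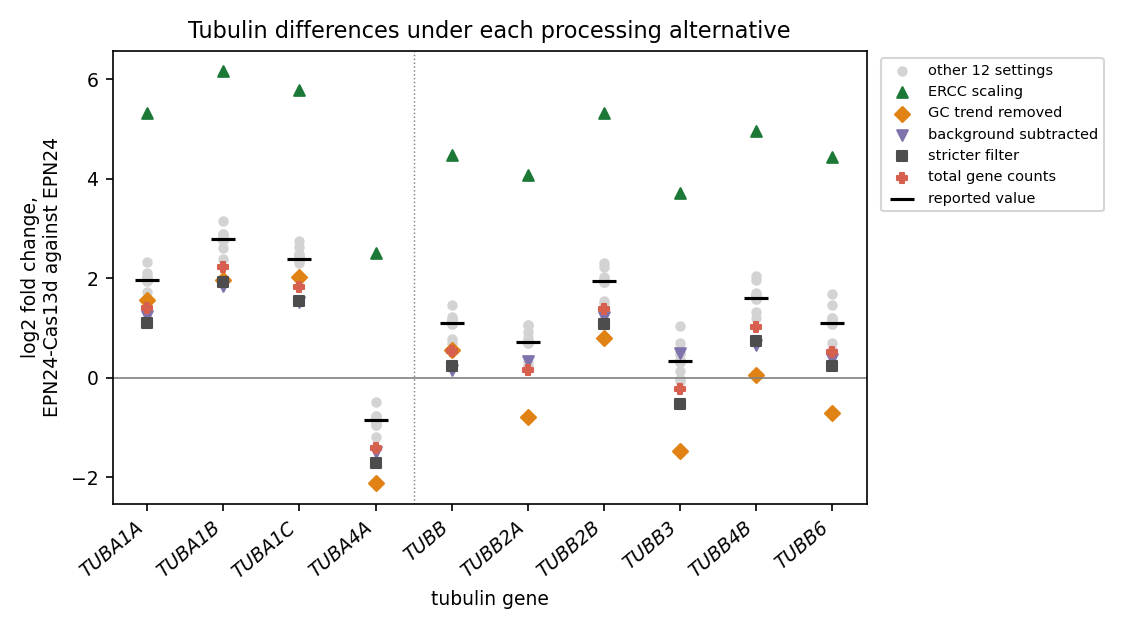
Log2 fold change of each tubulin gene with every processing alternative: the black dash is the reported value, coloured symbols are 5 alternatives picked for display, and grey points are the other 12. TUBA1B stays above 0 throughout, from 1.85 to 6.15, while TUBB3 lies on both sides of 0, from -1.46 to 3.70.

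The other genes of the microtubule system were divided. Of 12 other tubulin genes 9 were tested, with 1 higher, 3 lower and a median of -1.43. Over all tested genes 32.6% were higher and 48.2% lower, with a median of -0.96, and the counts of each list stand beside these. TUBG1, the gamma tubulin of the nucleating ring complex, rose by 1.87 on the log2 scale (158 ± 5.65 against 43.3 ± 16.4 CPM). TUBE1, the epsilon tubulin of centrioles, fell by 3.43 (0.995 ± 0.728 against 11.0 ± 0.835 CPM), on 2 and 6 counts with Cas13d. Its value was -2.76 without EPN24-Cas13d replicate 1 and -4.33 without EPN24-Cas13d replicate 2, and the call was lost with the GC trend removed (-0.78) and with ERCC scaling (-0.12). Of the 13 nucleation genes, 10 were higher and 2 lower, with a median of 1.82. Among them TUBGCP2, a ring complex subunit, rose by 3.40 and PCNT, the centrosomal scaffold pericentrin, by 2.39. Of the 26 microtubule-associated and plus-end genes, 15 were higher and 6 lower (median 0.94), and the smallest p belonged to MAP7D1 (3.87) and MAP1S (4.64), which bind along the microtubule. Of the 18 tubulin modification genes tested, 8 were higher and 5 lower (median 0.53), with TTLL12 at 4.57 and the glutamylase TTLL4 at 3.32.

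Genes for folding and for taking microtubules apart are set beside the same shares over all tested genes, 32.6% higher and 48.2% lower. Of the 14 gene entries for tubulin folding, in which TBCE occurs under 2 identifiers, 3 were higher and 9 lower (median -1.38). PFDN2, a prefoldin subunit that hands unfolded tubulin to the chaperonin, fell by 4.12 (-0.76 and not called with ERCC scaling), and the cofactor TBCD, which assembles the dimer, rose by 1.502. Of the 14 destabilising and severing genes tested, 4 were higher and 7 lower, with a median of -1.996. The kinesin KIF18B rose by 4.73. Outside the naming rule and chosen after their values were seen, STMN1, the tubulin-sequestering stathmin, fell by 3.28, and its relative STMN3 rose by 5.05. Among the 12 autoregulation genes 5 were higher and 5 lower (median -0.29). CNOT1, the scaffold of CCR4-NOT, rose by 1.76 and its subunit CNOT9 by 1.83. TTC5 rose by 1.31 and SCAPER fell by 2.60, both outside the naming rule and chosen after their values were seen. With ERCC scaling 75 of the 104 tested genes of these lists were higher and 0 lower by edgeR's quasi-likelihood test, beside 58.4% higher and 2.33% lower over all tested genes. The lower calls in these lists thus rest on the scaling, as do most, but not all, of those over all genes.

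Tubulin pseudogenes held few counts beside the members with Cas13d, and a larger part beside them in EPN24. The alpha members summed to 6815 and 6863.66 counts with Cas13d and 588 and 615 without. The beta members summed to 3419 and 3278.5 against 727.5 and 740.5. The 13 TUBA pseudogenes summed to 30 and 36 counts with Cas13d and 78 and 53 without, and the most abundant, TUBA5P, had 14 and 26 against 17 and 15. The 31 TUBB pseudogenes summed to 113 and 85.5 against 106.5 and 91. Of these TUBBP5 had 95 and 73.5 against 14 and 13.5 counts, a log2 fold change of 1.68 (adjusted p = 8.67e-04 in edgeR), and the other 30 held 18 and 12 against 92.5 and 77.5. Reads shared with the members would count toward either gene.

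The genes whose levels over the 4 libraries were most like the summed tubulin CPM were VPS26C, EIF3L and STON2, at distances of 0.037, 0.050 and 0.054 on the centred log2(CPM + 1) scale. VPS26C measured 81.0 and 83.1 CPM with Cas13d and 18.7 and 19.9 without. Such likeness was common over 4 libraries: 143 of 6544 candidate genes lay within 0.2.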

How the data were processed

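RNA of HEK293T culture supernatant was measured in 4 libraries, 2 per group, grouped by the sample titles. Per the labels' protocols, ERCC RNA was added before extraction, and libraries were amplified by PCR with no molecular identifiers named and sequenced as read pairs. The submitters' processing notes list STAR 2.7.10a, featureCounts 2.0.1, DESeq2 1.36.0, Trim Galore 0.6.7 and FastQC 0.11.9, with hg38 and GRCh38. The sources used here do not give the annotation release, the strand setting and how multiply mapping reads were handled. The authors deposited expected counts per gene, without normalization, of which 7.83% to 9.20% per library were not whole. Exon coordinates and exon length in bp, an other kind of unit, were deposited beside them. A second deposited table of the authors holds DESeq2 results: a mean normalized signal, log2 fold changes with standard errors, a test score and p-values.

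Of the table, 61543 genes and 92 ERCC transcripts were used, and 5 lines, the broken row of 1 gene, were left out. After rounding, edgeR 4.0.16 (R 4.3.3) was run over all 4 libraries: filterByExpr (20476 genes kept), TMM without ERCC, robust quasi-likelihood test, Benjamini-Hochberg adjustment over all tested genes, threshold 0.05. The approximate SE is the size of the log2 fold change over the square root of F, and ± is the SD of 2 libraries. A floor of 3 counts corresponded to 0.721 and 0.755 CPM with Cas13d and to 1.34 and 1.42 without, and covers counting error only. Replicates were checked and held different counts (chi-square per degree of freedom 2.39 with Cas13d, 3.39 without). Of the whole counts above 0, 66.8% to 72.4% per library were even. If each read pair was counted as 2, these counts, the chi-square and the p-values rest on doubled counts. Whether pairs were counted so was not tested. The counts halved alternative repeats the fit and its calls for that case, while the chi-square was not recomputed. The test was checked on simulated counts of 17930 genes, 200 of them changed. It called 28.2% of the 2-fold and 53.7% of the 4-fold changes, with 1 false call, so genes not called may still differ. Far more genes differed in the real data, so the simulation does not check the scaling there.

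The members, gene lists and alternatives were chosen with earlier results of these data known. Named genes are all members, the 2 genes of smallest p in each list, the 3 genes most like the summed members (mean of at least 20 CPM), and the most abundant TUBA and TUBB pseudogene; 1 gene so named and some coding sequence are not reported here. Of the marker lists, 4, 1 and 0 genes were higher and 3, 7 and 4 lower (HEK293-associated, neuronal, blood and liver), of 11, 9 and 5 tested. Over all tested genes 32.6% were higher and 48.2% lower. Coding sequences, transcript lengths and GC content came from GENCODE release 29 transcripts (GC found for 97.3% of tested genes), with Biopython 1.88 and pandas 2.3.3. The principal transcript is the transcript whose coding sequence is printed. Alternatives covered scaling, filter, DESeq2 1.42.0, limma-voom (limma 3.58.1), a replicate block, each library left out, GC and length trends (loess, span 0.5), counts halved, background subtraction and overlapping genes.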

Additional observations from a re-analysis of the deposited data

How the results depend on the processing

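With 10 tubulin genes tested in 2 libraries per group, the number called higher was 7, and it was 6 with total gene counts, 10 with ERCC scaling, 5 with the stricter filter, with the GC trend removed and with background subtracted, 8 with overlapping counts added, and 7 with the other alternatives, each library left out included (7 to 7). The number called lower was 0. It was 1 with total gene counts, the stricter filter, limma-voom, counts halved and background subtracted, 2 with the GC trend removed, and 0 to 0 with a library left out. Values turned sign for TUBA4A with ERCC scaling (2.50), TUBB2A with the GC trend removed (-0.79), TUBB6 with the GC trend removed (-0.70), and TUBB3 with total gene counts (-0.22), the stricter filter (-0.52), the GC trend removed (-1.46), counts halved (-0.069) and without EPN24 replicate 1 (-0.016, and up to 0.51 with another library left out). The cause was not tested. The median of all tested genes was -1.53 with total gene counts, -2.55 without a filter, -0.61 with the GC trend removed, -0.35 with counts halved and -0.11 with background subtracted, so a zero log2 fold change marks a different point in each. The stricter filter left out TUBB2A. Of the 104 listed microtubule genes tested, 45 were higher and 37 lower, beside 32.6% and 48.2% of all tested genes. With ERCC scaling the numbers were 75 and 0, beside 58.4% and 2.33%. With the GC trend removed 23 were lower, beside 39.9%. The difference in alpha share was 22.1 percentage points, 14.5 without TUBB, 10.7 without TUBA1B, 8.25 without TUBA1B per kb of principal transcript, and 21.6 to 22.6 with a library left out. No member had over 5% fractional counts, so no other member was removed beside TUBB. The settings without TUBA1B, per kb of principal transcript and with overlapping counts were added after seeing the data.

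Replicate numbers are shared by the groups, but same-numbered libraries did not deviate together (correlation -0.003 over 20476 genes). With the replicate number as a block, 7 members were higher and 0 lower, and no member's call changed. Counts of 10 to 60 in EPN24 limit what can be seen for TUBA1A, TUBA4A, TUBB2A, TUBB2B, TUBB3 and TUBB6.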
